A study of Mus musculus with 36 samples.

Results

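The genes described here are 10 members of the growth hormone and STAT5 axis of the liver, taken by symbol from the 32544 gene symbols of the count table: the receptors Ghr, Prlr and Lifr, the secreted factors Igf1 and Igfals, the feedback inhibitors Socs2 and Cish, and the transcription factors Stat5b, Bcl6 and Cux2. All 10 passed the filter on low counts, which kept 15338 symbols. The counts came from ribosome-depleted total RNA of whole livers of 36 male C57BL/6N mice, which were 8 to 10 weeks old at the start, with 6 mice in each of 6 groups. Carbon tetrachloride (CCl4), a solvent that injures hepatocytes, was injected into the peritoneum at 1 g/kg in olive oil, and these livers were sampled after 2, 6 or 12 months of dosing, on day 6 after the last injection. Vehicle mice received olive oil alone and were sampled at month 2 or month 12. The remaining group is titled as a month 0 control, while its treatment label names olive oil. No oil group of month 6 was analysed here, so CCl4 at month 6 was set against both oil groups, with their log-scale averages given equal weight. This comparison therefore shares its control mice with the comparisons at months 2 and 12.

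Growth hormone from the pituitary binds the receptor GHR on hepatocytes, which activates the kinase JAK2 and through it the transcription factor STAT5B. STAT5B induces the circulating growth factor IGF1, its serum carrier subunit IGFALS, and the inhibitors CISH and SOCS2, which bind the activated receptor complex and damp the signal. Male rodents release growth hormone in pulses and females almost continuously, and the resulting pattern of STAT5B activity keeps many liver genes at levels that differ by sex. BCL6 is a repressor that is more abundant in male liver and acts on female-biased genes, and CUX2 is a repressor that is more abundant in female liver and acts on male-biased genes. The prolactin receptor PRLR also signals through STAT5. LIFR binds leukaemia inhibitory factor and, with the shared subunit gp130 (Il6st), signals mainly through STAT3.

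In mm10, by GENCODE vM21, the 3 receptor genes lie on chromosome 15: Ghr at chr15:3317760-3583492 on the minus strand, Lifr at chr15:7090614-7197489 and Prlr at chr15:10177238-10349180, both on the plus strand. Igf1 lies at chr10:87858265-87937042 on the plus strand, and Socs2 at chr10:95385362-95417180 on the minus strand. Cish lies at chr9:107296026-107302784 and Igfals at chr17:24865997-24882010, both on the plus strand. Stat5b lies at chr11:100780731-100850724, Bcl6 at chr16:23965052-23988852 and Cux2 at chr5:121856366-122050102, all on the minus strand. Prlr shares exonic bases with Gm21973 on its own strand. Cish shares them with Gm17040 and Gm17041, and Bcl6 with Gm37419, on the opposite strand. The libraries kept strand information, but the sources used here do not say whether the counting used it, so reads of these overlapping genes may not be fully separated.

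STAT dimers recognise the palindrome TTCNNNGAA, in which N is any base. It was searched, and reads alike on both strands, in RefSeq (GRCm38.p6) start windows of 300 bases, 250 before and 50 from a transcript start, of the 9 members found in that table. No other motif was searched. Of 18 member windows 6 held it, in 4 of 9 members, against 8.30% of 32851 windows and 9.55% of 27025 genes in the table. The sequences below show these matches, with the motif in capitals and each sequence 5′ to 3′ on the strand of its gene. In Cish a pair of matches lies 11 bases apart, the upstream of them beginning at the transcript start itself. In an internal start of Bcl6, 3 matches fall within 113 bases. Of all windows, 11 (0.0335%) held 3 or more. The starts shown for Cish, Prlr and Igfals also lie inside their genes as annotated by GENCODE, and the Cish sequence overlaps a GENCODE exon.
Cish, chr9:107296654-107296683, plus strand: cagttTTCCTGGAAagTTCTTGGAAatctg
Prlr, chr15:10223786-10223814, plus strand: gcaaaatgagTTCTAGGAAtaagggatat
Igfals, chr17:24877598-24877626, plus strand: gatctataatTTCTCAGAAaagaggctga
Igfals, chr17:24878163-24878191, plus strand: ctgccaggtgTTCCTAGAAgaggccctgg
Bcl6, chr16:23988952-23988980, minus strand: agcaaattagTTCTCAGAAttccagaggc
Bcl6, internal start, chr16:23981351-23981463, minus strand: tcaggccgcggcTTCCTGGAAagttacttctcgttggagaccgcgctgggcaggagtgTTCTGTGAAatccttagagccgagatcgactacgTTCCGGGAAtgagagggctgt
A match describes letters only, and no binding was measured. The windows of Ghr, Lifr, Igf1, Stat5b and Cux2 held none of these letters, which says nothing about sites elsewhere.

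Libraries held between 19403247 and 28917545 counts. Levels are in CPM, here counts divided by the library total times its TMM factor, a scaling factor estimated for each library. The factors were 1.24 to 1.33 in month 12 CCl4 and 0.78 to 1.01 in month 12 oil. Levels in month 12 CCl4 are therefore lower, relative to oil, than with library totals alone. All ranges and overlaps of levels are on the TMM scale. Fold changes are log2 values from 1 fit of all libraries with their standard error (SE). A gene was called at an adjusted p below 0.05 over all tested genes. The hepatocyte markers Alb, Ttr, Apoa1, Tat, Cps1 and Serpina1c were present in every group and summed to between 53174 and 105993 CPM per liver. Transcripts of pancreas were present in every library, with a summed level from 8.70 CPM up to 16656 CPM in month 2 CCl4 replicate 5. The median sum was 4053 CPM in month 2 oil and 405 CPM in month 2 CCl4. At month 12 it was 2004 CPM in oil and 577 CPM under CCl4. The counts of called members were also made without libraries picked, after their values were seen, for high levels of other tissues or blood cells. The 4 left out first were month 2 CCl4 replicates 1 (neutrophil and erythroid markers) and 6 (intestine), month 2 oil replicate 2 (pancreas) and month 12 oil replicate 2 (B and plasma cells and mesothelium). Another 3 also have high levels, namely month 2 CCl4 replicate 5 and month 12 oil replicate 4 for pancreas and month 6 CCl4 replicate 2 for neutrophils and mesothelium, and were left out as well in a further fit. Without the 4, and without all 7, the number of called members was 0 at month 2, 2 at month 6 and 8 at month 12, as with them. Other libraries with pancreas transcripts stayed in these fits, such as month 0 replicate 6 (5207 CPM) and month 6 CCl4 replicate 1 (4007 CPM).

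After 12 months of CCl4, 7 of the 10 members were called lower and 1 higher. The 3 receptors, both secreted factors, Stat5b and Bcl6 fell, Cux2 rose, and the differences for the feedback genes Socs2 and Cish did not pass the test. The drop was 3.67-fold for Lifr, 2.98-fold for Ghr, 2.23-fold for Igf1, 2.15-fold for Igfals and 4.80-fold for Bcl6. At month 2 none of the 10 was called, and at month 6 only Lifr and Prlr were, both lower. In whole liver, fewer cells of a type and less RNA per cell cannot be told apart.

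**Figure D1:**
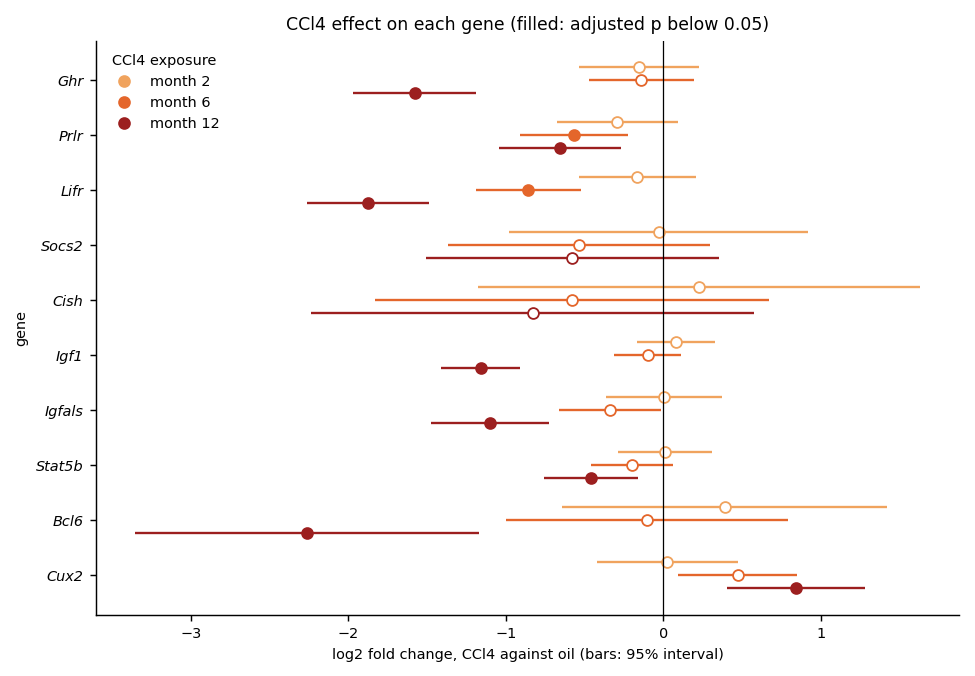
Log2 fold change of CCl4 against oil for each member (horizontal axis, bars are 95% intervals) at months 2, 6 and 12, with filled points for an adjusted p below 0.05. At month 2 every interval includes 0, and at month 12 the points of Bcl6, Lifr, Ghr, Igf1 and Igfals lie below -1.

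The calls of the members are read against those of all genes in the same comparison. At month 2, 0 of 10 members were called by edgeR, and 0 had an unadjusted p below 0.05, where 10.4% of tested genes were called. DESeq2 and limma-voom also called 0. At month 6, 2 of 10 were called, where 11.4% of tested genes were, both of them lower (3.68% of tested genes), and 4 had an unadjusted p below 0.05. At month 12, 8 of 10 were called where 49.1% of tested genes were called, 7 of them lower (23.2% of all genes) and 1 higher (25.9%). The median log2 fold change of the 10 members was 0.01 at month 2, -0.27 at month 6 and -0.97 at month 12, beside medians of all tested genes of -0.0002, -0.0016 and 0.01. The scaling matters for the smaller of these changes. With library totals alone the median tested gene shifted by 0.20 at month 2, 0.31 at month 6 and 0.56 at month 12, and under that scaling Prlr (-0.12) and Stat5b (0.08) were no longer called at month 12, whereas the other 6 called members were.

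The CCl4 effect at month 12 differed from that at month 2, by the interaction term, for 5 of 10 members, where 21.3% of tested genes were called, all 5 towards a lower effect (10.1%). The difference between the effects was -1.42 for Ghr (SE 0.27, adjusted p = 0.000204), -1.71 for Lifr (SE 0.26, adjusted p = 1.32e-05), -1.24 for Igf1 (SE 0.17, adjusted p = 3.06e-06), -1.11 for Igfals (SE 0.26, adjusted p = 0.00209) and -2.65 for Bcl6 (SE 0.73, adjusted p = 0.00863). For Cux2 it was 0.82 with a 95% interval from 0.19 to 1.45, and missed the threshold (adjusted p = 0.0550). That call depended on the setting: the Cux2 interaction was called with DESeq2 (0.82, adjusted p = 0.0487), with library totals alone (1.17), without the 4 libraries (0.98) and without the 7 (1.15). It was also called when month 12 CCl4 replicate 1 (0.92), 3 (0.95) or 5 (0.95), month 12 oil replicate 1 (0.88) or 4 (0.88), or month 2 CCl4 replicate 1 (0.94) was left out, and in none of the other 18 such fits. For Prlr (-0.36), Stat5b (-0.47), Socs2 (-0.55) and Cish (-1.06) a change of effect between the months was not called.

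**Figure D2:**
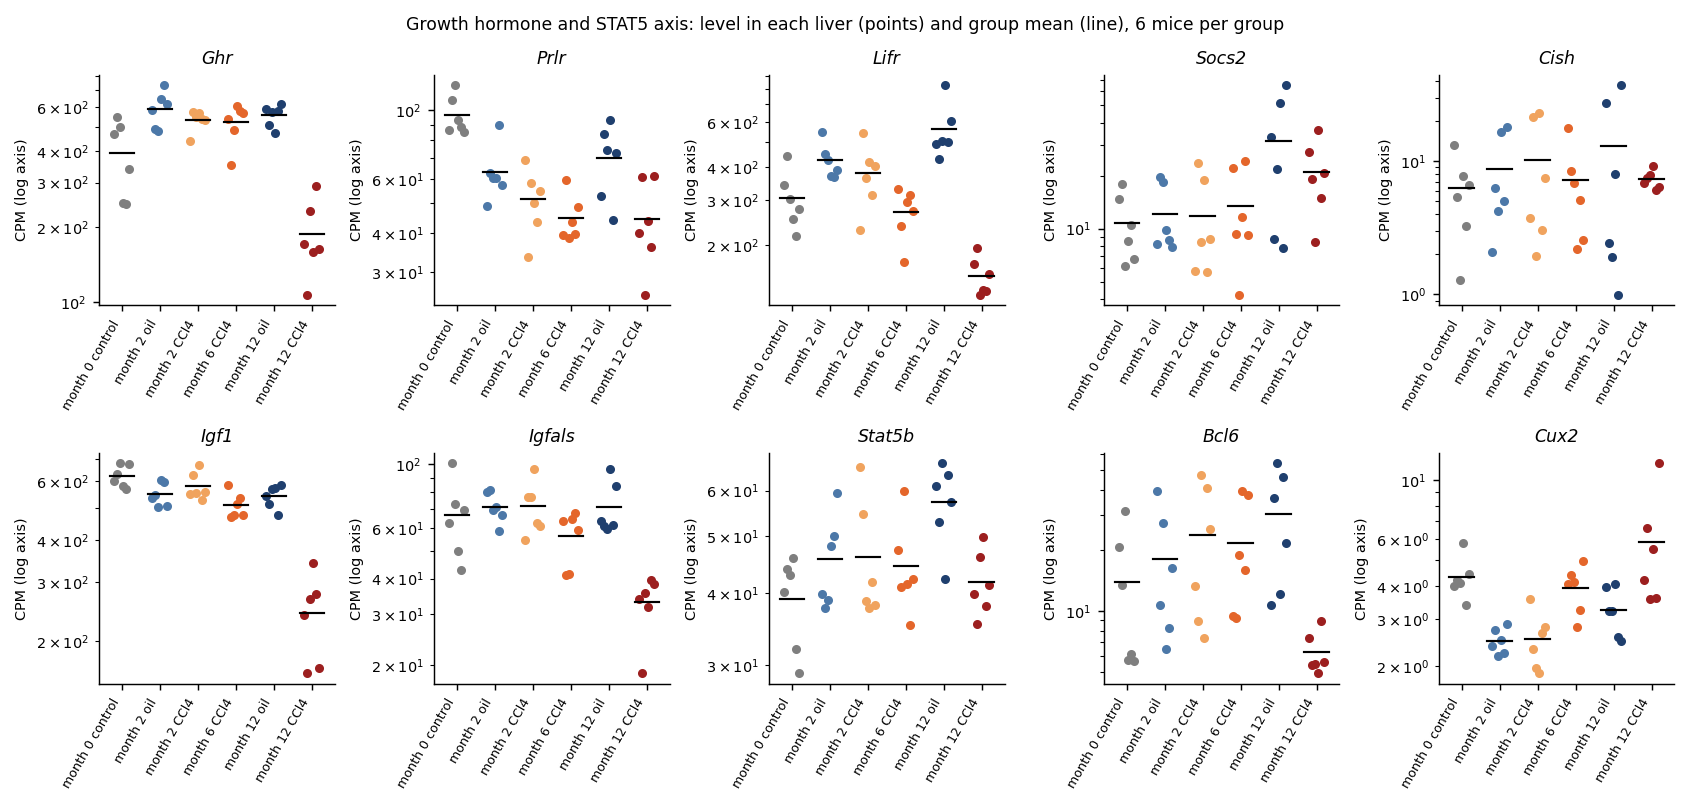
Level of each member in CPM (vertical log axis) in each of the 36 livers by group, with points for mice and a line for the group mean. For Ghr, Lifr, Igf1, Igfals and Bcl6 all 6 month 12 CCl4 livers lie below all 6 month 12 oil livers.

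Among the receptors, Ghr carries the growth hormone signal itself. Its level was 475 to 616 CPM (median 575) in month 12 oil and 107 to 290 CPM (median 167) in month 12 CCl4. Every CCl4 liver was below every oil liver at month 12. Ranges without overlap, counted in either direction, were found for 22.3% of tested genes. The log2 fold change was -1.58 (SE 0.19, adjusted p = 3.92e-08), and it stayed between -1.72 and -1.44 with any 1 of the 12 libraries left out.

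At month 2, Ghr was 440 to 572 CPM (median 542) under CCl4 and 482 to 736 CPM (median 600) in oil. At month 6 it was 355 to 604 CPM (median 554). These ranges overlapped, and the log2 fold changes were -0.15 at month 2 (95% interval -0.53 to 0.23) and -0.14 at month 6 (-0.47 to 0.19). The receptor was thus still near its oil level at month 6, and from month 6 to month 12 of CCl4 it fell by 1.48 (log2, SE 0.19, adjusted p = 2.45e-07), again with no overlap of the mice. In the order of the group means, month 2 oil was highest (593 CPM) and month 12 CCl4 lowest (187 CPM). Every pair of neighbours in that order overlapped, since 2 month 0 livers held only 248 CPM.

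Lifr was called lower from month 6. It was 366 to 549 CPM (median 409) in month 2 oil and 229 to 543 CPM (median 385) in month 2 CCl4. It was 173 to 329 CPM (median 283) in month 6 CCl4. At month 12 it was 432 to 831 CPM (median 503) in oil and 129 to 196 CPM (median 145) under CCl4. All 6 month 6 CCl4 livers were below all 12 oil livers. In that comparison 1.81% of tested genes had ranges without overlap, counted in either direction. All 6 month 12 CCl4 livers were below all 6 oil livers of that month. In the fit, the log2 fold change was -0.16 at month 2 (adjusted p = 0.638), -0.86 at month 6 (SE 0.16, adjusted p = 0.000549) and -1.87 at month 12 (SE 0.19, adjusted p = 1.06e-09). Lifr fell further between months 6 and 12 of CCl4, by 0.82 (log2, SE 0.18, adjusted p = 0.000632).

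Prlr, which binds prolactin and in rodents responds to hormonal state in the liver, differed by less. Its level was 49.1 to 89.4 CPM (median 60.4) in month 2 oil and 33.5 to 69.1 CPM (median 52.6) in month 2 CCl4. It was 38.5 to 59.7 CPM (median 41.7) in month 6 CCl4. After 12 months it was 44.1 to 92.9 CPM (median 73.7) in oil and 25.3 to 61.3 CPM (median 42.0) under CCl4. At months 6 and 12, 4 of 6 CCl4 livers lay below all oil livers and the rest overlapped with them. Its log2 fold change was -0.29 at month 2 (adjusted p = 0.361), -0.57 at month 6 (SE 0.17, adjusted p = 0.0234) and -0.65 at month 12 (SE 0.19, adjusted p = 0.00473). The month 6 call was lost without month 6 CCl4 replicate 1 (-0.53), 3 (-0.53) or 5 (-0.53), against month 2 oil alone (-0.49), and with library totals alone (-0.25). Between months 6 and 12 of CCl4 the difference in Prlr was -0.01 (95% interval -0.40 to 0.37), while Ghr and Lifr were called lower over the same interval.

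Of the secreted factors, Igf1 is the main circulating product of growth hormone action. In every group other than month 12 CCl4 its SD of log2 CPM, 0.11 to 0.13, was the smallest of the members. Igf1 was 503 to 603 CPM (median 539) in month 2 oil, 526.1 to 668 CPM (median 554) in month 2 CCl4 and 470 to 584 CPM (median 494) in month 6 CCl4. At month 12 it was 474 to 585 CPM (median 554) in oil and 161 to 343 CPM (median 254) under CCl4, with no overlap. The log2 fold change was 0.08 at month 2 (95% interval -0.17 to 0.33), -0.10 at month 6 (-0.31 to 0.12) and -1.16 at month 12 (SE 0.12, adjusted p = 2.77e-09). Over all 6 groups, the 5 groups other than month 12 CCl4 had means between 508 and 622 CPM with overlapping neighbours, and month 12 CCl4, at 243 CPM, stood apart from the next group without overlap. The step from month 6 to month 12 of CCl4 was a fall by 1.07 (log2, SE 0.12, adjusted p = 3.02e-08).

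Igfals encodes the acid-labile subunit, which holds IGF1 and its binding protein in a long-lived serum complex. It was 58.5 to 81.3 CPM (median 70.4) in month 2 oil and 54.6 to 96.2 CPM (median 69.7) in month 2 CCl4. It was 41.0 to 67.5 CPM (median 61.2) in month 6 CCl4. After 12 months it was 59.5 to 96.6 CPM (median 62.5) in oil and 18.7 to 39.7 CPM (median 34.9) under CCl4, with no overlap. In the fit, the log2 fold change was 0.004 at month 2, -0.34 at month 6 (95% interval -0.66 to -0.02, adjusted p = 0.177) and -1.10 at month 12 (SE 0.18, adjusted p = 8.29e-06). From month 6 to month 12 of CCl4, Igfals fell by 0.76 (log2, SE 0.18, adjusted p = 0.00116). Within livers, the log2 ratio of Igfals to Igf1, each as CPM + 1, was -3.23 to -2.55 in month 12 oil and -3.39 to -2.08 under CCl4 at that month. These ranges overlapped, with a mean of -2.94 in oil and -2.82 under CCl4.

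The feedback inhibitors, like Bcl6, had wide ranges within the oil groups. Socs2 was 7.89 to 19.6 CPM (median 9.17) in month 2 oil and 5.71 to 23.4 CPM (median 8.57) in month 2 CCl4. It was 4.21 to 24.3 CPM (median 10.5) in month 6 CCl4. At month 12 it was 7.75 to 65.3 CPM (median 27.4) in oil and 8.46 to 36.3 CPM (median 19.8) under CCl4. All CCl4 and oil ranges overlapped. Its log2 fold change was -0.03 at month 2 (95% interval -0.98 to 0.92), -0.53 at month 6 (-1.37 to 0.30) and -0.58 at month 12 (-1.51 to 0.35, adjusted p = 0.308). At months 6 and 12 these intervals include a 2-fold fall and leave out a 2-fold rise. Between the oil groups Socs2 was 2.60-fold higher at month 12 than at month 2, with an unadjusted p of 0.00590 in the fit that did not hold after adjustment (adjusted p = 0.220).

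Cish, a STAT5 target whose transcript is made and lost quickly after a pulse of growth hormone, had the widest range of the members in every group other than month 12 CCl4. It was 2.08 to 17.99 CPM (median 5.65) in month 2 oil and 1.94 to 23.1 CPM (median 5.61) in month 2 CCl4. It was 2.19 to 17.9 CPM (median 5.99) in month 6 CCl4. In month 12 oil it spanned 0.991 to 37.3 CPM (median 5.25), and in month 12 CCl4 6.06 to 9.26 CPM (median 7.21). In oil at month 12, 3 livers held 0.991 to 2.42 CPM and 2 held 27.4 and 37.3 CPM, while all 6 CCl4 livers lay between these extremes. The means did not separate: the log2 fold change was 0.23 at month 2 (95% interval -1.18 to 1.63), -0.58 at month 6 (-1.83 to 0.67) and -0.83 at month 12 (-2.24 to 0.58, adjusted p = 0.336).

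The spread of Cish between mice was what differed at month 12. The SD of its log2 CPM was 1.16 at month 0, 1.2 in month 2 oil, 1.5 in month 2 CCl4, 1.13 in month 6 CCl4 and 2.15 in month 12 oil, and 0.22 in month 12 CCl4. The highest liver held 37.7 times the lowest in month 12 oil and 1.53 times in month 12 CCl4, from 182 to 258 reads. The ratio of the SD under CCl4 to that in oil at month 12 was 0.102. It was the lowest of the 12776 genes whose mean reached 1 CPM and which were detected in every library. Their median ratio was 1.3. With each of the 12 libraries left out in turn it lay between 0.0709 and 0.115, and with library totals alone it was 0.0933. Bcl6 had a ratio of 0.330, with 1.75% of genes at or below it, and Socs2 a ratio of 0.563, with 8.81% at or below. Ghr and Igf1 had ratios of 3.4 and 3.8, with 95.1% and 96.2% of genes at or below them, so their levels varied more between mice under CCl4 than in oil. These ratios describe 6 livers against 6, and no test was made of them. The sources used here give no hour at which each liver was taken.

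**Figure D3:**
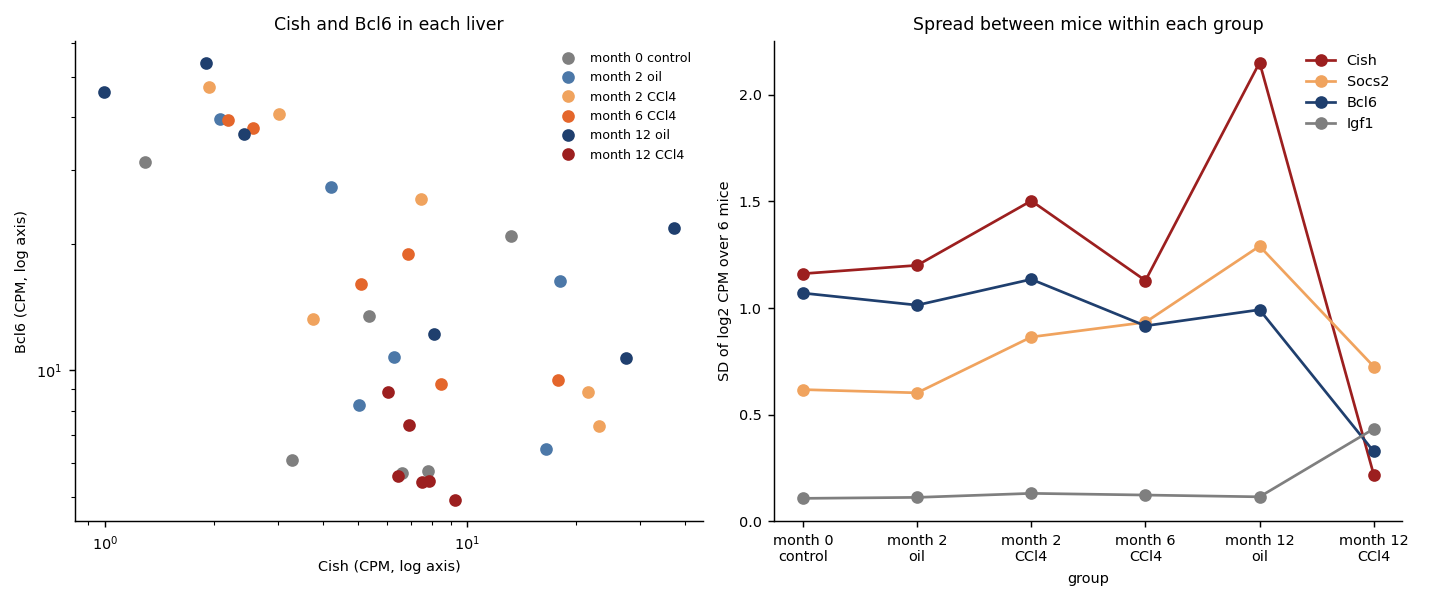
Left, Bcl6 against Cish in CPM (both log axes) with a point for each of the 36 livers coloured by group. Right, SD of log2 CPM over the 6 mice of each group for Cish, Socs2, Bcl6 and Igf1. The month 12 CCl4 livers sit together at low Bcl6 and mid-range Cish, and the SD of Cish falls to 0.22 in that group from 2.15 in month 12 oil.

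In most groups the livers with little Cish were those with much Bcl6. Over the 6 livers of a group, Pearson's r of Cish and Bcl6 on the log2 CPM scale was negative in each of the 6 groups. It was -0.34 at month 0, -0.65 in month 2 oil, -0.87 in month 2 CCl4 and -0.93 in month 6 CCl4. At month 12 it was -0.80 in oil and -0.77 under CCl4. Spearman's rho was -0.31, -0.60, -0.94, -0.89, -0.77 and -0.89 in the same order. None held after adjustment over the 18 relations computed, with the smallest adjusted p, by exact permutation, 0.190 for r and 0.150 for rho. Without the 2 livers farthest from the median of Cish, r was -0.12, -0.84, -0.50, -0.92, -0.91 and -0.35. Cish and Socs2 gave r between -0.17 (month 2 oil) and 0.88 (month 2 CCl4), and Socs2 and Bcl6 gave r between -0.71 (month 2 CCl4) and 0.12 (month 0). The livers of a group share treatment and age, and the Cish and Bcl6 counts of a liver share a library.

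Of the transcription factors, Stat5b encodes the factor that growth hormone activates. It was 37.6 to 59.4 CPM (median 44.0) in month 2 oil and 37.6 to 65.9 CPM (median 40.2) in month 2 CCl4. It was 35.2 to 59.99 CPM (median 41.9) in month 6 CCl4. After 12 months it was 42.3 to 66.8 CPM (median 59.1) in oil and 35.3 to 49.9 CPM (median 40.6) under CCl4. Of the 6 month 12 CCl4 livers 4 lay below all oil livers. The log2 fold change was 0.01 at month 2, -0.20 at month 6 (95% interval -0.46 to 0.06) and -0.46 at month 12 (SE 0.15, adjusted p = 0.00982). The transcript level does not measure phosphorylated STAT5B.

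Bcl6, the male-predominant repressor, had the largest drop. It was 6.50 to 39.5 CPM (median 13.5) in month 2 oil and 7.35 to 47.1 CPM (median 19.4) in month 2 CCl4. It was 9.27 to 39.3 CPM (median 17.5) in month 6 CCl4. At month 12 it was 10.7 to 54.0 CPM (median 29.2) in oil and 4.92 to 8.89 CPM (median 5.52) under CCl4, with no overlap. In the fit, the log2 fold change was 0.39 at month 2 (95% interval -0.64 to 1.42), -0.10 at month 6 (-0.996 to 0.79) and -2.26 at month 12 (SE 0.54, adjusted p = 0.000716). Between months 6 and 12 of CCl4 it fell by 1.79 (log2, SE 0.53, adjusted p = 0.00717), also with no overlap. The month 12 CCl4 range overlapped with that of month 0, where 3 of 6 livers held 5.68 to 6.11 CPM.

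Cux2, the female-predominant repressor, was the only member called higher. Its level was low throughout: 2.18 to 2.88 CPM (median 2.44) in month 2 oil and 1.88 to 3.59 CPM (median 2.49) in month 2 CCl4. It was 2.81 to 4.99 CPM (median 4.11) in month 6 CCl4. After 12 months it was 2.48 to 4.06 CPM (median 3.21) in oil and 3.56 to 11.6 CPM (median 4.86) under CCl4, from 96 to 327 reads. Of the 6 month 12 CCl4 livers 4 lay above all oil livers. Its log2 fold change was 0.03 at month 2, 0.47 at month 6 (95% interval 0.10 to 0.85, adjusted p = 0.0960) and 0.85 at month 12 (SE 0.22, adjusted p = 0.00151). The month 6 value was called in edgeR fits of the compared groups only (0.46, adjusted p = 0.0270) and with library totals alone (0.79, adjusted p = 0.000685). Replicate 6 of month 12 CCl4, at 11.6 CPM, was far above the other 5 livers of its group (3.56 to 6.59 CPM), and without it the month 12 value was 0.55 and still called. From month 6 to month 12 of CCl4, Cux2 rose by 0.57 (SE 0.21, adjusted p = 0.0332), which was lost without that liver (0.26), without month 12 CCl4 replicate 2 (0.54), without month 6 CCl4 replicate 4 (0.48) or 5 (0.51), with limma-voom (0.45) and in the fit of the compared groups only (0.57, adjusted p = 0.134).

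Within livers, the log2 ratio of Cux2 to Bcl6, each as CPM + 1, was -3.72 to -1.23 (median -2.94) in month 12 oil and -1.10 to 0.93 (median -0.18) in month 12 CCl4. All 6 CCl4 livers were above all 6 oil livers, although the edges of the groups lay close together. Bcl6 alone already separated these groups, and Cux2 in CCl4 replicates 3 and 5, at 3.56 and 3.60 CPM, lay within the oil range. In month 2 oil the ratio was -3.58 to -1.10, in month 2 CCl4 -4.02 to -1.54 and in month 6 CCl4 -3.40 to -0.93, all overlapping. The month 0 livers ran from -2.66 to 0.01 and overlapped with the month 12 CCl4 livers.

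Between receptors, the log2 ratio of Prlr to Ghr was -3.68 to -2.34 (median -2.99) in month 12 oil and -3.14 to -0.80 (median -1.95) in month 12 CCl4, overlapping. The ratio of Lifr to Ghr was -0.27 to 0.81 (median -0.19) in month 12 oil and -1.12 to 0.86 (median -0.15) in month 12 CCl4, overlapping. At month 6, when Lifr was called and Ghr was not, it was -1.48 to -0.57 (median -0.96), below all 6 month 12 oil livers and overlapping with month 2 oil (-1.0 to -0.09). Single livers differed in which member was lowest. Month 12 CCl4 replicate 2 had the lowest Ghr (107 CPM), Igf1 (161 CPM) and Igfals (18.7 CPM) of its group and the highest Lifr (196 CPM). Replicate 6 had low Igf1 (166 CPM) beside the highest Prlr (61.3 CPM) and Cux2. The ratio of Stat5a, the close relative of Stat5b that also transmits the signal, to Stat5b was -2.46 to -2.18 in month 12 oil and -2.18 to -1.77 in month 12 CCl4, overlapping at their edges.

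**Figure D4:**
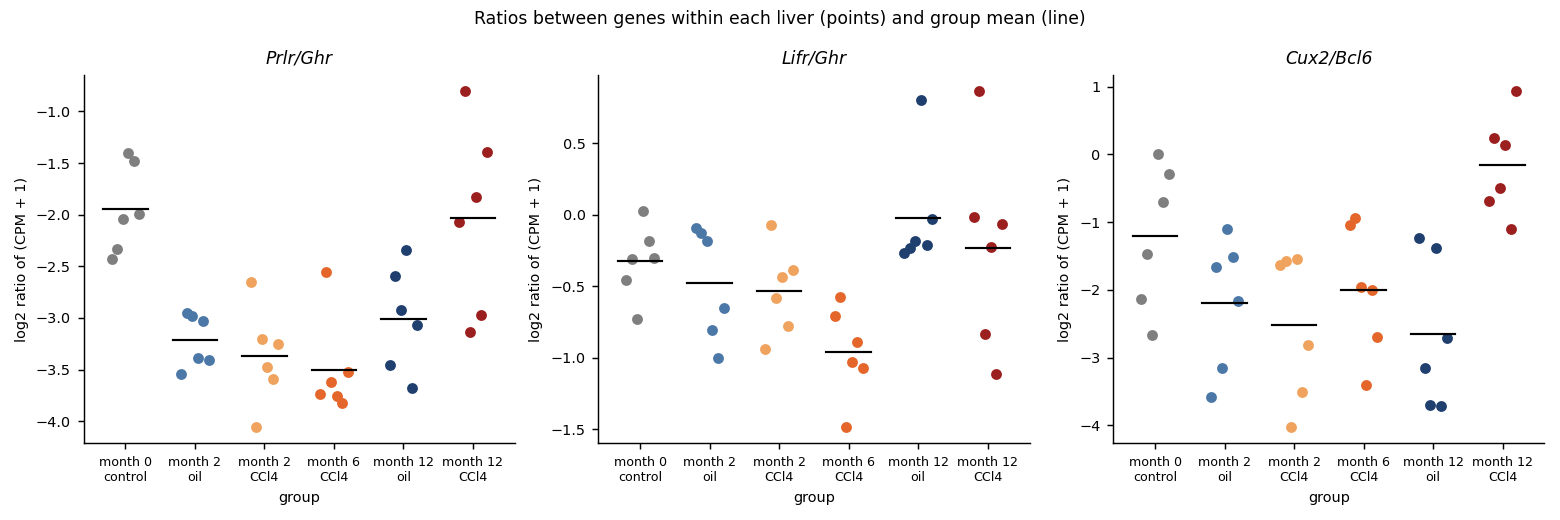
Log2 ratio of CPM + 1 (vertical axis) of Prlr to Ghr, Lifr to Ghr and Cux2 to Bcl6 in each liver by group, with points for mice and a line for the group mean. In Cux2 to Bcl6 the month 12 CCl4 livers, from -1.10 to 0.93, lie above all month 12 oil livers, and in Lifr to Ghr the month 6 CCl4 livers lie below all month 12 oil livers.

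The vehicle groups give the background of time and injection for these values. Between months 2 and 12 of oil, 0 of 10 members were called by edgeR, where 0.0717% of tested genes were called, and 3 had an unadjusted p below 0.05 (Lifr, Socs2 and Stat5b). DESeq2 and limma-voom also called 0 of 10. Between month 0 and month 2 of oil, 4 of 10 were called, where 31.3% of tested genes were, 2 of them higher (14.8%) and 2 lower (16.4%). Ghr was 0.60 higher (SE 0.19, adjusted p = 0.0152) and Lifr 0.48 higher (SE 0.18, adjusted p = 0.0460) at month 2, on the log2 scale. The log2 fold changes of Prlr (-0.62, SE 0.19, adjusted p = 0.0126) and Cux2 (-0.80, SE 0.22, adjusted p = 0.00580) were towards lower levels at month 2. With library totals alone the Prlr call was lost (-0.39).

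In this comparison Cux2 had no overlap, with 3.38 to 5.80 CPM at month 0 and 2.18 to 2.88 CPM in month 2 oil, as for 13.9% of tested genes. The month 0 ranges were 248 to 548 CPM for Ghr, 218 to 443 CPM for Lifr and 85.1 to 121 CPM for Prlr, each overlapping with month 2 oil. The Lifr call was lost in 9 of 12 fits that left out 1 library (0.38 to 0.60 over the 12) without the 4 libraries named above (0.45) and, narrowly, with no low-count filter (0.50, adjusted p = 0.0508). The Ghr call was lost without month 0 replicate 4 (0.48) or 5 (0.48). Age and vehicle injections cannot be told apart here. Taken against month 0 instead of oil, month 2 CCl4 called 2 members, Prlr (-0.91) and Cux2 (-0.77), so the choice of reference matters for Ghr, Lifr, Prlr and Cux2.

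The course under CCl4 lay mostly between months 6 and 12. From month 2 to month 6, 0 of 10 members were called by edgeR, where 0.502% of tested genes were, and 2 had an unadjusted p below 0.05: Lifr (-0.49) and Cux2 (0.64). From month 6 to month 12, 6 of 10 were called, where 39.2% of tested genes were: Ghr, Lifr, Igf1, Igfals and Bcl6 were lower (18.6% of tested genes) and Cux2 was higher (20.6%). Of these Ghr, Igf1, Igfals and Bcl6 had no overlap, as for 14.5% of tested genes. For the step from month 2 to month 6, DESeq2 and limma-voom also called 0. These comparisons subtract no oil group of the same age.

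Levels of different members can be set side by side only per length of transcript, here as CPM per kilobase of exonic sequence in GENCODE vM21. In month 2 oil, Ghr (65.5) and Igf1 (55.3) were the highest, followed by Lifr (39.5), Igfals (22.5), Stat5b (8.25), Prlr (4.12), Bcl6 (2.70), Cish (1.35), Socs2 (1.27) and Cux2 (0.246). In month 12 CCl4, Igf1 (24.5) stood first, Ghr had 20.6, Lifr 14.2, and Bcl6 (0.937) had come near Cux2 (0.580). The lengths rest on all annotated exons of a gene, which may exceed the transcript made in liver.

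Other genes of growth hormone signalling went both ways. Of 18 tested, which included Jak2, Stat5a, Socs1, Socs3 and the phosphatases, 3 were called higher and 0 lower at month 2, 2 higher and 0 lower at month 6, and 4 higher and 3 lower at month 12, with a median log2 fold change of 0.04 at month 12. These 7 of 18 stand beside the 49.1% of all tested genes called at that month. The share was 10.4% at month 2 and 11.4% at month 6. Jak2 (0.06, adjusted p = 0.573) and Stat5a (-0.22, adjusted p = 0.250), which transmit the signal, were not called at month 12. Sirpa, a membrane protein that recruits SHP phosphatases and is abundant on macrophages, rose at each time, to 72.7 ± 8.01 CPM (SD) in month 12 CCl4 from 26.6 ± 4.54 CPM in oil (log2 fold change 1.45, SE 0.16, adjusted p = 3.46e-09). Ptpn6, the phosphatase SHP-1 of blood cells, also rose at each time, by 0.41, 0.44 and 0.56. Grb10, an adaptor that binds insulin and growth factor receptors, rose at month 12 by 0.91 (adjusted p = 0.00192).

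In the family of LIF and interleukin 6, 9 of 12 genes were tested. At month 12, 3 were called higher and 3 lower, with a median of -0.46. Of all tested genes, 25.9% were called higher and 23.2% lower at that month, and 10.4% were called at month 2 and 11.4% at month 6. The ligand Lif was 0.0792 to 0.228 CPM in month 12 oil and 1.15 to 3.83 CPM under CCl4 (log2 fold change 3.53, SE 0.40, adjusted p = 1.19e-08), so ligand and receptor moved in opposite directions at that month. Clcf1, another ligand of the family, rose by 2.50 (adjusted p = 1.03e-07), and had risen by 1.04 at month 6. Osmr, which pairs with gp130 as Lifr does, rose at months 2, 6 and 12, by 0.67, 0.78 and 1.10. Il11ra1, the receptor of interleukin 11, fell at month 12 by 0.79. At months 2 and 6 no gene of this family was called lower, 1 and 2 were called higher, while Lifr was called lower at month 6.

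Around Igf1, 13 genes of the IGF axis were tested. At month 12, 5 were called higher and 3 lower, with a median of 0.15. Of all tested genes, 25.9% were called higher and 23.2% lower at that month, and 10.4% were called at month 2 and 11.4% at month 6. Igfbp1, a binding protein that hepatocytes release in fasting and stress, was 13.8 to 70.2 CPM in month 12 oil and 37.7 to 1723 CPM under CCl4 (log2 fold change 3.50, SE 0.77, adjusted p = 0.000336), with overlap. Igfbp7, which non-parenchymal cells express, rose at months 2, 6 and 12 by 0.73, 0.60 and 0.81. Igf2r, which clears IGF2, rose by 0.64 at month 12. Igfbp3 (1.86) and Stc2 (1.69) were also called higher at that month. Igfbp3 was 12.1 to 23.1 CPM in oil and 14.4 to 186 CPM under CCl4, with overlap. Stc2 was 0.181 to 0.766 CPM in oil and 0.915 to 2.69 CPM under CCl4, with no overlap. The 3 called lower were Igfbp2 (-1.21), Igfbp4 (-0.51) and Igfbp5 (-1.43). Igfbp5 was 10.7 to 137 CPM in month 12 oil (mean 36.5, SD 49.6) and 3.72 to 21.6 CPM under CCl4, with overlap. The calls at months 2 and 6 were 2 higher and 0 lower, and 1 higher and 1 lower.

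Of 14 other hepatocyte transcription factors, 1 was called higher and 2 lower at month 2, and 0 higher and 1 lower at month 6. At month 12, 1 was called higher and 5 lower, with a median of -0.27. Of all tested genes, 10.4% were called at month 2, 11.4% at month 6 and 49.1% at month 12 (25.9% higher and 23.2% lower). Foxa1, a pioneer factor of liver genes, fell at month 12 by 1.27 (SE 0.23, adjusted p = 2.08e-05). Esr1, the oestrogen receptor, fell by 1.06 (adjusted p = 4.08e-06), after a rise by 0.52 at month 2 (adjusted p = 0.0408). Nr3c1, the glucocorticoid receptor, which cooperates with STAT5B on growth genes, fell by 0.45 (adjusted p = 4.48e-06).

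**Figure D5:**
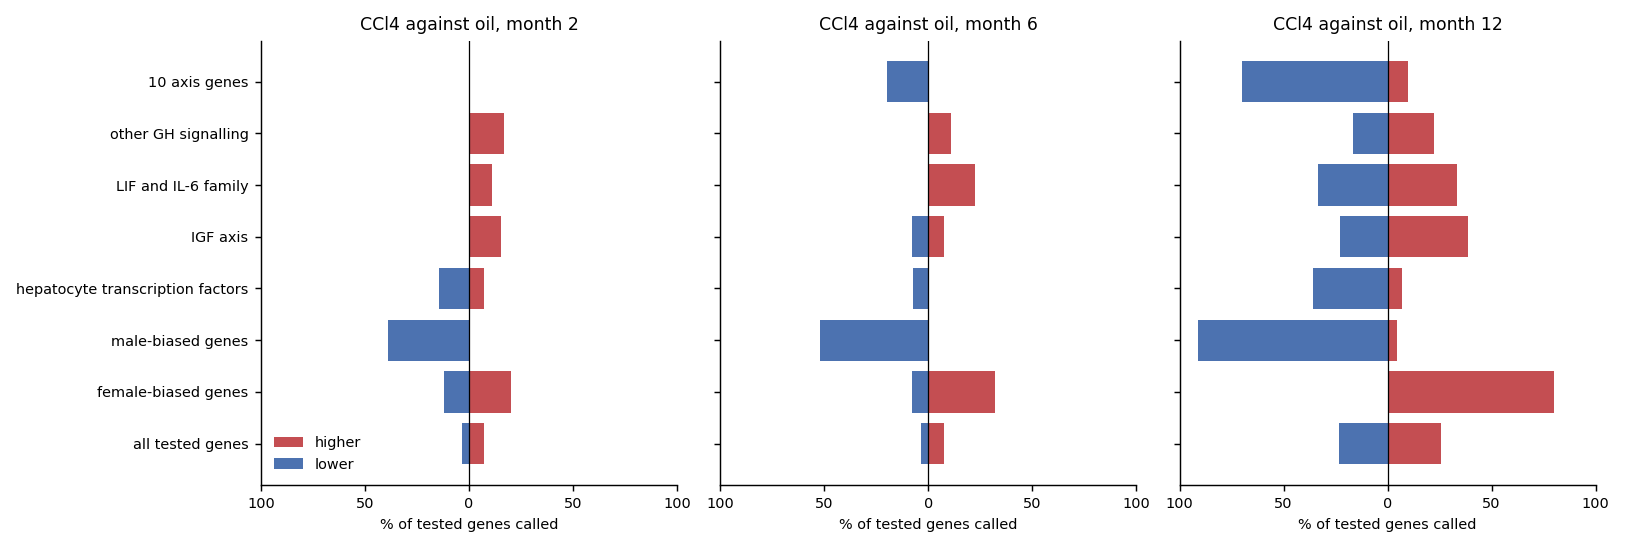
Percentage of tested genes called higher (right of 0) and lower (left of 0) in CCl4 against oil at months 2, 6 and 12, for the 10 members, 6 companion lists and all tested genes. At month 12 the bars of the male-biased list reach far to the lower side and those of the female-biased list to the higher side.

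Lists of genes that are male-biased or female-biased in liver held calls at every month. Of 23 tested male-biased genes, 9 were called lower and 0 higher at month 2, 12 lower and 0 higher at month 6, and 21 lower and 1 higher at month 12, with medians of -0.74, -0.65 and -2.98. Of 25 tested female-biased genes, 5 were called higher and 3 lower at month 2, 8 higher and 2 lower at month 6, and 20 higher and 0 lower at month 12, with medians of 0.68, 0.64 and 2.55. Of all 15338 tested genes, 518 were called lower and 1073 higher at month 2, and 564 lower and 1182 higher at month 6. At month 12, 23.2% of them were called lower and 25.9% higher. At month 2, therefore, calls in these lists stood beside 0 calls among the members, Cux2 and Bcl6 included. The lists were chosen with earlier results of these data known. Whether the lists and the members differ in their course was not tested.

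Slco1a1, a hepatic organic anion transporter, was 784 to 954 CPM in month 2 oil and 158 to 434 CPM in month 2 CCl4, 42.7 to 208 CPM in month 6 CCl4 and 1.84 to 5.82 CPM in month 12 CCl4, against 590 to 896 CPM in month 12 oil. All CCl4 livers were below all oil livers at each month. The steroid enzyme gene Hsd3b5 also fell at each month, to 0.0708 to 0.515 CPM in month 12 CCl4 from 255 to 422 CPM in oil. C8a, a complement component, was not called at month 2 (-0.14) and fell by 0.52 at month 6 and by 1.98 at month 12.

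Cyp7b1 and Cyp2u1, 2 cytochromes P450, were called lower at each of the 3 months, as were Elovl3, Moxd1, Susd4 and Mup21. Susd4 was 20.99 to 34.4 CPM in month 2 oil and 1.08 to 1.64 CPM in month 2 CCl4, lower by 4.37 on the log2 scale. It is 1 gene of the male-biased list, of which 14 of 23 were not called at month 2 and the median was -0.74. Cyp7b1 fell by 1.55, 2.15 and 3.96 at months 2, 6 and 12. These losses are levels of transcripts in whole liver, as for the members.

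Among female-biased genes, Cyp2a4 was 0 to 0.317 CPM in month 12 oil and 262 to 3087 CPM in month 12 CCl4. Sult2a2, a sulfotransferase gene, had 0 counts in all 12 oil livers and 3.49 to 28.4 CPM in month 12 CCl4. By library totals alone it was at least 722-fold higher, with a floor of 3 counts over the oil group. With the TMM factors this bound would be lower. The list medians did not change with Sult2a2 set at that bound. Hamp2, a hepcidin gene, rose at months 2, 6 and 12 by 3.16, 3.57 and 2.39, and Rtn4, which shapes the endoplasmic reticulum, by 0.68, 0.83 and 1.99. Near-identical relatives exist for Cyp2a4, Sult2a2, Hsd3b5 and Mup21, and the sources used here do not say how reads were divided between them.

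The genes whose pattern over the 36 livers was most like that of a member were found by the root mean square difference of log2(CPM + 1), after centring each gene. For Ghr these were Il1rap (0.170), Akr1c6 (0.178) and Acadsb (0.211), and for Igf1 they were Urah (0.170), Svip (0.221) and Aass (0.225). For Igfals they were Glyat (0.246), Ido2 (0.256) and Abcb10 (0.258). These differences are small beside the span of the group means, which was 1.72 for Ghr, 1.40 for Igf1 and 1.11 for Igfals on the same scale. Lifr was less closely matched, by Epb41l4b (0.368), Lama3 (0.372) and Ces4a (0.373) with a span of 1.85, and Prlr by Lysmd3 (0.315), Lrrc16a (0.326) and Abcc9 (0.328) with a span of 1.15. For Bcl6 the nearest were Fam214a (0.757), Papln (0.778) and Arhgap42 (0.783), and for Socs2 they were Slc25a30 (0.544), Mad2l1bp (0.707) and Tuft1 (0.719). The nearest genes to Bcl6 and Socs2 thus lay farther from them than those of Ghr and Igf1 did. The group means of Cish, Stat5b and Cux2 spanned less than 1, and no such genes were listed for them.

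Markers of cell types moved with the month 12 comparison, and their part in the changes of the members was not tested. The summed level of 6 hepatocyte markers was 53174 to 97456 CPM in month 12 oil and 56980 to 95721 CPM in month 12 CCl4, overlapping, with 4 of 6 called lower and none at 0. That of 6 markers of monocyte-derived macrophages (Trem2, Gpnmb, Cd9, Itgax, Cx3cr1 and Ccr2) was 37.6 to 66.5 CPM in oil and 149 to 210 CPM under CCl4, with 6 of 6 called higher. That of 6 cholangiocyte markers was 6.89 to 20.9 CPM in oil and 16.2 to 25.4 CPM under CCl4, with 3 of 6 called higher. Markers of T and NK cells were called higher in 3 of 5 (2.75 to 6.48 CPM in oil, 4.38 to 9.17 CPM under CCl4), and Kupffer cell markers lower in 2 of 5 (250 to 318 CPM and 97.2 to 379 CPM). Of 6 endothelial markers, 4 were called higher and 1 lower (220 to 266 CPM and 221 to 324 CPM). Of 6 markers of stellate cells and fibroblasts, 1 was called higher and 2 lower (524 to 1020 CPM and 533 to 667 CPM). Of all tested genes, 25.9% were called higher and 23.2% lower at month 12, and 10.4% were called at month 2. At month 2, when 0 members were called, 5 of 6 macrophage markers were called higher (28.04 to 69.99 CPM in oil, 88.0 to 105 CPM under CCl4), as were 3 of 6 markers of stellate cells and fibroblasts (454 to 698 CPM and 714 to 956 CPM). Of these markers none was at 0 throughout a group. Among other tissues, Cdx1 of the intestinal list was at 0 in month 0, month 6 CCl4 and both month 12 groups, Muc2 in month 12 CCl4, and Lep in month 6 CCl4.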

How the data were processed

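Raw counts, whole numbers per gene symbol and library, were deposited by the authors as a table of 32544 symbols and 36 libraries. The submitters' processing notes name Biojupies for mapping, the build mm10, edgeR 3.30.3 and limma 3.44.3. The annotation behind the counts, and any rounding of them, are points not given in the sources used here. Low-count genes were removed with filterByExpr, which left 15338, and after TMM scaling the quasi-likelihood test of edgeR 4.0.16 (R 4.3.3) was applied in 1 fit of 6 group means, with Benjamini-Hochberg adjustment over all tested genes within each of 8 comparisons. Standard errors are the effect over the root of F, and CPM use the TMM factors. Ratios used a pseudocount of 1, and correlations used log2 CPM without one. The members and lists were chosen with earlier results of these data known. Named genes are the 10 members, the 3 genes of each list with the smallest month 12 p and those called at months 2, 6 and 12, and the 3 genes nearest to each member whose group means span at least 1. Genes of markers and lists printed beyond these illustrate counts. The procedure was tested on simulated counts. Alternatives were RLE size factors, library totals, other filters, a replicate block, DESeq2 1.42.0, limma-voom (limma 3.58.1), the compared groups only, other reference groups, leaving out each library, and, chosen after seeing the data, leaving out 4 or 7 libraries. Replicate libraries all differed beyond sampling noise (chi-square per degree of freedom at least 24.65 over 90 pairs). Labels name separate mice without cages or donors, so p-values measure the spread between these mice. Intervals and floors cover counting error or this spread only. Sequences are from RefSeq, and all libraries entered the comparisons.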

Additional observations from a re-analysis of the deposited data

Results flagged for a closer look

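For 5 genes the CCl4 effect at month 12 differed from that at month 2 by the interaction term of the edgeR fit: Ghr (-1.42), Lifr (-1.71), Igf1 (-1.24), Igfals (-1.11) and Bcl6 (-2.65), all log2 values that stayed called with any 1 of the 24 libraries left out. An outlier rule marked a single liver as far from the other 5 in 3 of the 60 gene and group sets examined. Chance marks about 1 in 20, so this is no more than that share. Ghr was 440 CPM in month 2 CCl4 replicate 1, below 532 to 572 CPM in the others. Prlr was 89.4 CPM in month 2 oil replicate 5, above 49.1 to 62.6 CPM. Igfals was 18.7 CPM in month 12 CCl4 replicate 2, below 31.9 to 39.7 CPM. Cux2 in month 12 CCl4 replicate 6 (11.6 CPM, above 3.56 to 6.59 CPM) was not marked by this rule.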

How the results depend on the processing

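The month 12 count of 8 called members, and the signs of the 8, held under every alternative except library totals alone, which called 6, moved Stat5b to 0.081 and left Prlr uncalled at -0.12. With month 0 as reference, month 2 CCl4 called 2 members, and the values became 0.44 for Ghr, 0.31 for Lifr, 0.14 for Socs2, -0.10 for Igf1 and -0.77 for Cux2. With month 2 oil alone as reference, month 6 called 1 member, and the values were 0.15 for Socs2 and 0.26 for Bcl6. With month 0, month 2 oil and month 12 oil as reference, month 6 gave 0.045 for Ghr and 0.15 for Bcl6. Library totals alone gave, at month 2, 0.048 for Ghr, 0.042 for Lifr and 0.17 for Socs2, and at month 6, 0.17 for Ghr, 0.21 for Igf1, 0.11 for Stat5b and 0.21 for Bcl6. Without the 4 libraries, month 2 gave 0.39 for Socs2, -0.15 for Stat5b and -0.16 for Cux2, and without the 7, 0.063 for Lifr, 0.66 for Socs2, -0.13 for Stat5b and -0.25 for Cux2. Values near 0 at month 2 changed sign with the tool: Igfals was -0.013 with RLE size factors and with DESeq2, -0.0014 with no filter and -0.015 with limma-voom, Stat5b was -0.0049 with RLE size factors and with DESeq2 and -0.0025 with limma-voom, and Cux2 was -0.0086 with limma-voom. Limma-voom gave 0.31 for Cish at month 12. Of these values, those for Stat5b and Prlr at month 12 were called in the fit as reported and the others were not. The cause was not tested.

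Leaving out 1 library at a time, members called were 0 at month 2, 1 to 2 at month 6, 8 at month 12, 5 to 6 for the interaction, 2 to 4 for month 2 oil against month 0, 5 to 6 from month 6 to month 12 of CCl4, and 0 for the other comparisons. The month 2 values ranged from -0.35 to 0.16 for Socs2, -0.20 to 0.58 for Cish, -0.10 to 0.052 for Igfals, -0.13 to 0.10 for Stat5b and -0.11 to 0.10 for Cux2, and the month 6 value of Bcl6 from -0.35 to 0.092.

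In every pair of groups some same-numbered mice deviated in opposite directions (lowest r -0.46), while the highest r was 0.47, between month 0 and month 2 oil. Mice of unequal number were not compared, so these values cannot decide whether replicate numbers pair the mice. The fit with the replicate number as a block called 0 members at month 2, 2 at month 6, 8 at month 12 and 5 for the interaction, as without it. Under the block Igfals (-0.0031) and Stat5b (-0.00069) changed sign at month 2 and Bcl6 (0.11) at month 6. Counts per liver were low for Cux2 (48 to 327 reads) and Cish (22 to 889 reads).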
